A study of Mus musculus with 21 samples.

Results

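The 33 genes described here encode enzymes that need ferrous iron and 2-oxoglutarate. They are 3 TET enzymes of DNA demethylation, 15 histone demethylases of the JmjC family or close relatives, 5 protein hydroxylases, 4 nucleic acid demethylases, 4 hydroxylases of the secretory pathway and 2 hydroxylases of small molecules. They were chosen by name for their shared cofactor, with earlier results of these data known, and were looked up in 3 tables of RNA-seq counts. Other enzymes with this cofactor were kept in a separate list, given further on. All 33 were found among 15945 genes of the bone marrow table and among 16645 genes of the table of cultured eosinophils, and 32 were found among 22274 genes of the table of cytokine-treated eosinophils, where Tmlhe was not analysed. The question put to the data was whether the RNA of these enzymes followed the supply of iron.

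The 21 mouse libraries were all from wild-type (WT) animals. Bone marrow-derived eosinophils (BMDEs) were grown from marrow in SCF and FLT3 ligand at 100 ng/mL each for 4 days with IL-5 (10 ng/mL) taking over afterwards. From day 4, 4 libraries received an iron source, ferric ammonium citrate (FAC, 10 µM), 3 had 5 µM deferoxamine (DFO), an iron chelator, and 2 were controls with neither, and RNA was taken on day 7. The remaining libraries were 3 labelled eosinophils of bone marrow with 3 of their progenitor stage, the granulocyte-monocyte progenitor (GMP), and 3 of eosinophils given cytokines and labelled T2, with 3 of resting eosinophils. Every T2 label gives GM-CSF and IL-4, and adds IL-33 in library 1, IL-34 in library 2 and IL-35 in library 3, which were treated here as a single group. The same BMDE culture text stands on all labels, so the source of the non-BMDE cells is unclear. Nothing says that the libraries of a group came from separate animals or cultures, so p-values measure only the spread between these libraries.

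These enzymes use oxygen and 2-oxoglutarate to put a hydroxyl group on their substrate, with iron bound in the active site, and release succinate and carbon dioxide. On a methylated nitrogen of lysine or of a base, the hydroxylated methyl group falls away, which is how JmjC and ALKBH enzymes remove methyl marks, whereas TET enzymes oxidise the methyl group of cytosine to products that stay in the DNA until they are lost or repaired. In bone marrow TET2 is known for restraining the growth of myeloid progenitors. Because iron is the cofactor, activity can change with iron while RNA does not, and only RNA was measured here. In these bulk samples a smaller number of cells of a type and less RNA per cell cannot be told apart.

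Of the members called between FAC and DFO (below an adjusted p of 0.05 in edgeR's quasi-likelihood test), 10 had a promoter window in RefSeq on GRCm38.p6, running from 250 bases before to 50 bases after the transcript start. HIF, the transcription factor whose stability depends on other iron enzymes of this class, binds DNA with the core ACGTG, and the members of its target list that were called between FAC and DFO are counted further on. ACGTG on either strand was in the windows of Tet2, Kdm7a, Kdm8, Riox2 and Jmjd6 and in none of those of Tet1, Jmjd1c, Phyh, Riox1 and Alkbh1. Over all members 10 of 33 windows held it, and 19.6% of all 32851 windows did. A match is a run of letters and no evidence of binding. The stretches around the match are shown for the 4 members whose match lies outside annotated exons, to set the core beside the genes that were lower and higher with FAC. Each is 60 bases of the gene's own strand, with the core in capitals, read as CACGT where it lies on the other strand.
Tet2, lower with FAC, chr3:133544391-133544450, minus strand: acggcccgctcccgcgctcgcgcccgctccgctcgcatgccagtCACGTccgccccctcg
Kdm7a, lower with FAC, chr6:39206881-39206940, minus strand: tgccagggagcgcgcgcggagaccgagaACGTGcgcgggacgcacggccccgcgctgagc
Kdm8, higher with FAC, chr7:125444410-125444469, plus strand: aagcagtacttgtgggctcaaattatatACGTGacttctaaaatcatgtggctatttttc
Riox2, higher with FAC, chr16:59471612-59471671, plus strand: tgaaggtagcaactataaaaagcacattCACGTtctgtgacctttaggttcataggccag
The core was present in members of both directions. The Tet2 stretch lies inside the GENCODE coordinates of the gene given below, which start further upstream than the RefSeq transcript start used here.

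Depth was 16809773 to 17991870 counts per BMDE library, 25857361 to 28992674 per bone marrow library and 16073573 to 18995878 per library of the third table. In the BMDE table the libraries were checked against cell markers. All 10 eosinophil markers were higher with FAC than with DFO, with summed levels of 57859 to 70002 CPM (TMM-scaled counts relative to library size) with FAC, 18627 to 22014 CPM with DFO and 42536 to 43485 CPM in controls. All 10 neutrophil markers and all 10 plasmacytoid dendritic cell markers were lower with FAC than with DFO, with neutrophil sums of 6383 to 9253 CPM, 16574 to 18594 CPM and 9068 to 10807 CPM in FAC, DFO and control libraries. Dendritic cell sums were 342 to 420.3 CPM with FAC, 1277 to 1302 CPM with DFO and 661 to 695 CPM in controls. Of 8 progenitor markers, 7 were lower with FAC than with DFO, with sums of 763 to 886 CPM with FAC, 1343 to 1415 CPM with DFO and 989 to 1005 CPM in controls. No marker of these 4 lists was at 0 throughout an arm, and the part of cell mixture in the results on the members was not tested. FAC library 6 stood apart from the others in how levels ran with transcript length. The mean log2 deviation of the longest 25% of genes minus that of the shortest 25% was -0.873 there, against -0.141 to 0.119 in the other FAC libraries, 0.238 to 0.292 in DFO libraries and 0.0964 and 0.116 in controls. The members have a median longest transcript of 5245 bases, against 3396 for all tested genes, so results are also given without that library and with offsets for length and GC content.

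Between FAC and DFO, 5 members were higher with FAC, 6 were lower and 22 were not called, out of 33 tested. The called share was 33.3%, against 48.2% of all 12607 genes tested, with 23.5% of all genes higher and 24.7% lower. Kdm8, Riox2, Riox1, Jmjd6 and Alkbh1 were higher, and Tet1, Jmjd1c, Phyh, Kdm7a, Tet2 and Kdm3b were lower. Tet1 alone changed by 2-fold or more, a size reached by 10.0% of all genes. FAC and DFO libraries did not overlap for 7 members that were higher and 14 that were lower, where 26.8% of all genes were higher and 28.9% lower without overlap (55.7% in all). The median log2 fold change of the members was -0.13, beside -0.01 for all genes. It was -0.02 without FAC library 6, and 0.17 with length and GC offsets, where that of all genes was 0.08. For the 22 that were not called the 95% intervals reached down to -0.82 (Kdm5a) and up to 0.73 (P4ha2).

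**Figure D1:**
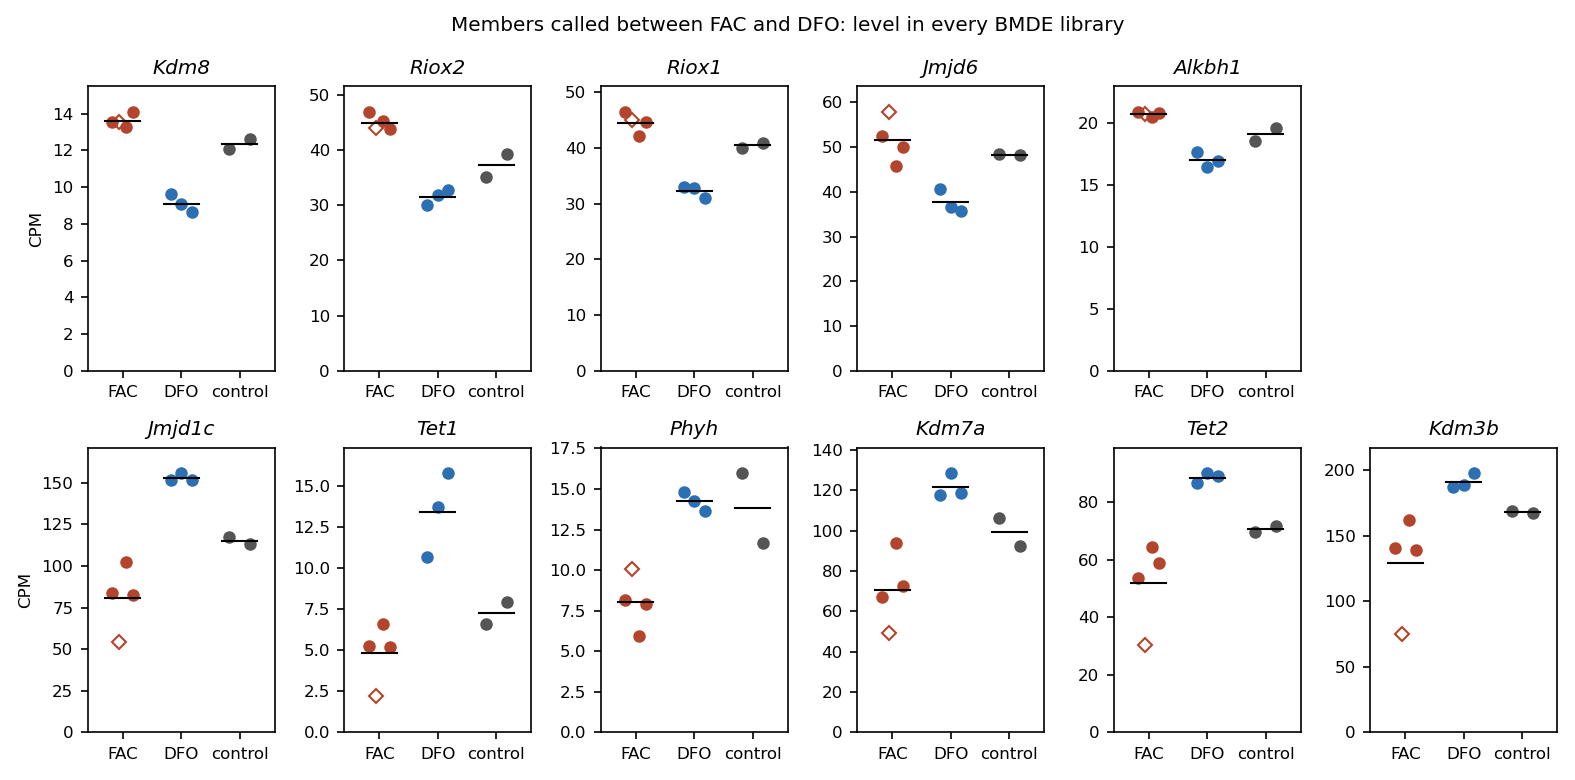
CPM of the 11 members called between FAC and DFO, in every BMDE library. Points are libraries, the open diamond is FAC library 6, horizontal lines are means, and each vertical axis starts at 0. FAC and DFO libraries do not overlap for any of the 11.

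The TET enzymes oxidise 5-methylcytosine, the first step of active DNA demethylation. Tet1 (chromosome 10, 62804570 to 62908996, minus strand, GRCm38) was at 5.27, 2.24, 6.59 and 5.19 CPM in FAC libraries 5, 6, 7 and 8, at 10.7, 13.8 and 15.8 CPM in DFO libraries 9, 11 and 12, and at 6.60 and 7.96 CPM in control libraries 1 and 2. Every FAC library lay below every control, library 7 by the least, and every control below every DFO library. The log2 fold change of FAC over DFO was -1.47 (SE 0.28, adjusted p 0.00225 by edgeR), 2.78-fold lower. It was -1.23 without FAC library 6 and -0.84 with length and GC offsets. Tet1 was low per length, at 0.490 ± 0.236 TPM (the authors' length-scaled unit) with FAC and 1.60 ± 0.313 TPM with DFO (SD, n = 4 and 3).

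Tet2 (chromosome 3, 133463679 to 133545139, minus strand), whose promoter stretch is printed above, was at 53.5, 30.5, 64.6 and 58.8 CPM with FAC, 86.6, 90.1 and 89.0 CPM with DFO and 69.7 and 71.7 CPM in controls. The arms did not overlap and the controls lay between them. FAC over DFO was -0.77 (SE 0.20, adjusted p 0.0122), -0.57 without FAC library 6 and -0.30 with length and GC offsets. Tet3 averaged 165 ± 32.1 CPM with FAC, 210 ± 3.74 CPM with DFO and 193 ± 0.207 CPM in controls. It was not called (log2 -0.35, 95% interval -0.65 to -0.05, adjusted p 0.0572), and its sign turned with the offsets, to 0.17 (adjusted p 0.0142), while without FAC library 6 it was called lower, at -0.22 (adjusted p 0.00563).

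Among the 15 histone demethylases 1 was higher and 3 were lower with FAC than with DFO, beside 23.5% and 24.7% of all genes. Of the 15, 12 had a negative fold change, where 48.9% of all genes had a positive one. With length and GC offsets 5 of the 15 were negative, where the median log2 fold change of all genes was 0.08, against -0.01 without offsets. Jmjd1c (chromosome 10, 67096125 to 67256326, plus strand), of the KDM3 family of H3K9 demethylases, was at 83.5, 54.5, 102 and 82.5 CPM with FAC, 152, 156 and 151 CPM with DFO and 117 and 113 CPM in controls. No FAC library reached a control and no control reached a DFO library. Its log2 fold change was -0.92 (SE 0.17, adjusted p 0.00181), -0.76 without FAC library 6 and -0.46 with the offsets. Kdm3b (chromosome 18, 34777047 to 34838660, plus strand), an H3K9 demethylase of the same family, was at 141, 75.1, 162 and 139 CPM with FAC, 188, 189 and 198 CPM with DFO and 169 and 168 CPM in controls. The FAC libraries were all lower, library 6 most of all. At -0.57 (SE 0.21, adjusted p 0.0471) it was near the threshold. Its call ended with the offsets (-0.27, adjusted p 0.0772) with 2 arms only, with no low-count filter, and without any 1 of the libraries other than FAC 6 and FAC 7, where leaving out a library gave -0.60 to -0.54. A predicted antisense gene covers 24.6% of the exonic bases of Kdm3b, and the strand setting of the counting is not given.

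Kdm7a (chromosome 6, 39136623 to 39206789, minus strand), a demethylase of H3K9 and H3K27 and another of the printed promoters, was at 67.3, 49.4, 93.7 and 72.8 CPM with FAC, 118, 128 and 119 CPM with DFO and 106 and 92.4 CPM in controls. FAC library 7 reached above control library 2, while FAC and DFO libraries were apart. The change was -0.78 on the log2 scale (SE 0.17, adjusted p 0.00556), -0.63 without FAC library 6 and -0.26 with the offsets. Kdm8 (chromosome 7, 125444676 to 125462269, plus strand), a JmjC enzyme first described as an H3K36 demethylase and since as a hydroxylase of arginine, went the other way. It was at 13.6, 13.5, 13.3 and 14.1 CPM with FAC, 9.61, 9.06 and 8.63 CPM with DFO and 12.1 and 12.6 CPM in controls. The arms were apart with controls between, and library 6 sat with the other FAC libraries. FAC over DFO was 0.58 (SE 0.08, adjusted p 0.000324), 0.60 without library 6 and 0.50 with the offsets.

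The other 11 histone demethylases were Kdm2a, Kdm2b, Kdm3a, Kdm4a, Kdm4b, Kdm4c, Kdm5a, Kdm5b, Kdm6b, Phf2 and Phf8. Their log2 fold changes ran between -0.43 (Kdm5a, an H3K4 demethylase) and 0.11 (Kdm4a, an H3K9 and H3K36 demethylase). With length and GC offsets Kdm2a, Kdm5a, Kdm5b and Kdm6b changed sign and were called higher with FAC, at 0.15, 0.13, 0.28 and 0.23, and Kdm4a (0.28) and Kdm4b (0.17) were called higher too. Without FAC library 6 and no offsets, Kdm2a, Kdm2b, Kdm4c, Kdm5a and Phf2 were called lower and Kdm4a higher, and without FAC library 7 the first 4 of these were called lower, so Kdm2a and Kdm5a were called in both directions. Kdm6b, the H3K27 demethylase induced in activated myeloid cells, averaged 99.7 ± 19.7 CPM with FAC, 106 ± 3.78 CPM with DFO and 102 ± 5.36 CPM in controls.

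Of the 5 protein hydroxylases, 3 were higher with FAC than with DFO and none was lower, beside 23.5% and 24.7% of all genes. Riox1 and Riox2 hydroxylate histidines of ribosomal proteins and lie in the nucleolus. Riox1 (chromosome 12, 83950608 to 83952951, plus strand) was at 46.4, 44.9, 42.1 and 44.7 CPM with FAC, 32.9, 32.8 and 30.9 CPM with DFO and 40.0 and 40.9 CPM in controls. Every control lay between the arms. The log2 fold change was 0.47 (SE 0.06, adjusted p 0.000369). Riox2 (chromosome 16, 59471775 to 59492461, plus strand), also among the printed promoters, was at 46.9, 43.9, 45.2 and 43.9 CPM with FAC, 30.03, 31.9 and 32.7 CPM with DFO and 35.1 and 39.4 CPM in controls. The order of the arms was the same and FAC over DFO was 0.51 (SE 0.07, adjusted p 0.000352). Overlapping genes on the other strand share 31.9% of the exonic bases of Riox1 and 22.4% of those of Riox2.

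Jmjd6 (chromosome 11, 116837432 to 116843449, minus strand), which hydroxylates lysines of splicing factors, was at 52.5, 57.8, 45.7 and 50.1 CPM with FAC, 40.6, 36.5 and 35.8 CPM with DFO and 48.3 and 48.2 CPM in controls. FAC library 7 fell below both controls, and the DFO libraries were below all others. FAC over DFO was 0.45 (SE 0.09, adjusted p 0.00309), and 0.64 with the offsets. Hif1an, the asparaginyl hydroxylase that limits HIF activity, averaged 61.4 ± 8.33 CPM with FAC, 67.4 ± 2.72 CPM with DFO and 68.3 ± 1.83 CPM in controls. It was not called at -0.13 (95% interval -0.37 to 0.10) and was called higher at 0.19 with the offsets. Ogfod1, a prolyl hydroxylase of a ribosomal protein, averaged 30.7 ± 5.68 CPM with FAC and 30.6 ± 0.887 CPM with DFO.

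All 4 nucleic acid demethylases had a positive fold change with FAC, where 48.9% of all genes had one, and 1 was called. Alkbh1 (chromosome 12, 87425840 to 87444017, minus strand), a demethylase of transfer RNA, was at 20.9, 20.7, 20.5 and 20.8 CPM with FAC, 17.7, 16.4 and 17.0 CPM with DFO and 18.6 and 19.6 CPM in controls. The arms did not overlap. Its log2 difference was 0.28 (SE 0.07, adjusted p 0.00724), and 0.42 with the offsets. The authors' TPM of Alkbh1 was not higher with FAC, at 16.5 ± 2.03, against 16.7 ± 0.417 with DFO and 17.7 ± 0.771 in controls. Over the 33 members the median TPM was 20.6 with FAC and 25.6 with DFO. The RNA m6A demethylase Fto was at 56.5 ± 2.601 CPM with FAC, 49.9 ± 1.81 CPM with DFO and 57.4 ± 3.52 CPM in controls, and missed the threshold (0.18, adjusted p 0.0524). It passed with offsets (0.41, adjusted p 0.000867), with DESeq2, with median-ratio or upper-quartile factors, and without FAC library 6 (0.21, adjusted p 0.00532) or 7. Alkbh3, which repairs alkylated nucleic acids, missed it at 0.19 (adjusted p 0.0629). It had 0.02 with offsets (adjusted p 0.893) and was called without FAC library 6 (0.20, adjusted p 0.0245). Alkbh5, the other m6A demethylase, had 0.12 (95% interval -0.12 to 0.36) and was called with offsets (0.42) and without FAC library 6 (0.23).

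None of the 4 secretory pathway hydroxylases was called. With offsets Asph (0.40) and Plod1 (0.23) were called higher with FAC, and Asph also without FAC library 6 (0.20). Plod1 and Plod3 hydroxylate lysines of procollagen, P4ha2 prolines of collagen, and Asph aspartates of EGF-like domains. Plod3 was the highest member per length in all 3 arms, at 55.7 ± 6.30 TPM with FAC, 70.0 ± 3.77 TPM with DFO and 64.1 ± 4.66 TPM in controls. On the CPM scale it averaged 125 ± 6.99 with FAC and 128 ± 8.71 with DFO (log2 -0.03, 95% interval -0.20 to 0.14). P4ha2 was at 0.572 to 1.203 CPM over the BMDE libraries.

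Phyh (chromosome 2, 4919019 to 4938730, plus strand) starts the breakdown of phytanic acid in peroxisomes. It was at 8.17, 10.1, 5.93 and 7.93 CPM with FAC, 14.8, 14.3 and 13.6 CPM with DFO and 15.96 and 11.7 CPM in controls. All FAC libraries were lower than all others, and DFO and control libraries overlapped. FAC over DFO was -0.83 (SE 0.17, adjusted p 0.00354), -0.94 without FAC library 6 and -0.98 with the offsets. Tmlhe, of carnitine synthesis, averaged 3.83 ± 0.376 CPM with FAC and 4.59 ± 0.255 CPM with DFO and was not called (-0.26, 95% interval -0.53 to 0.01).

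**Figure D2:**
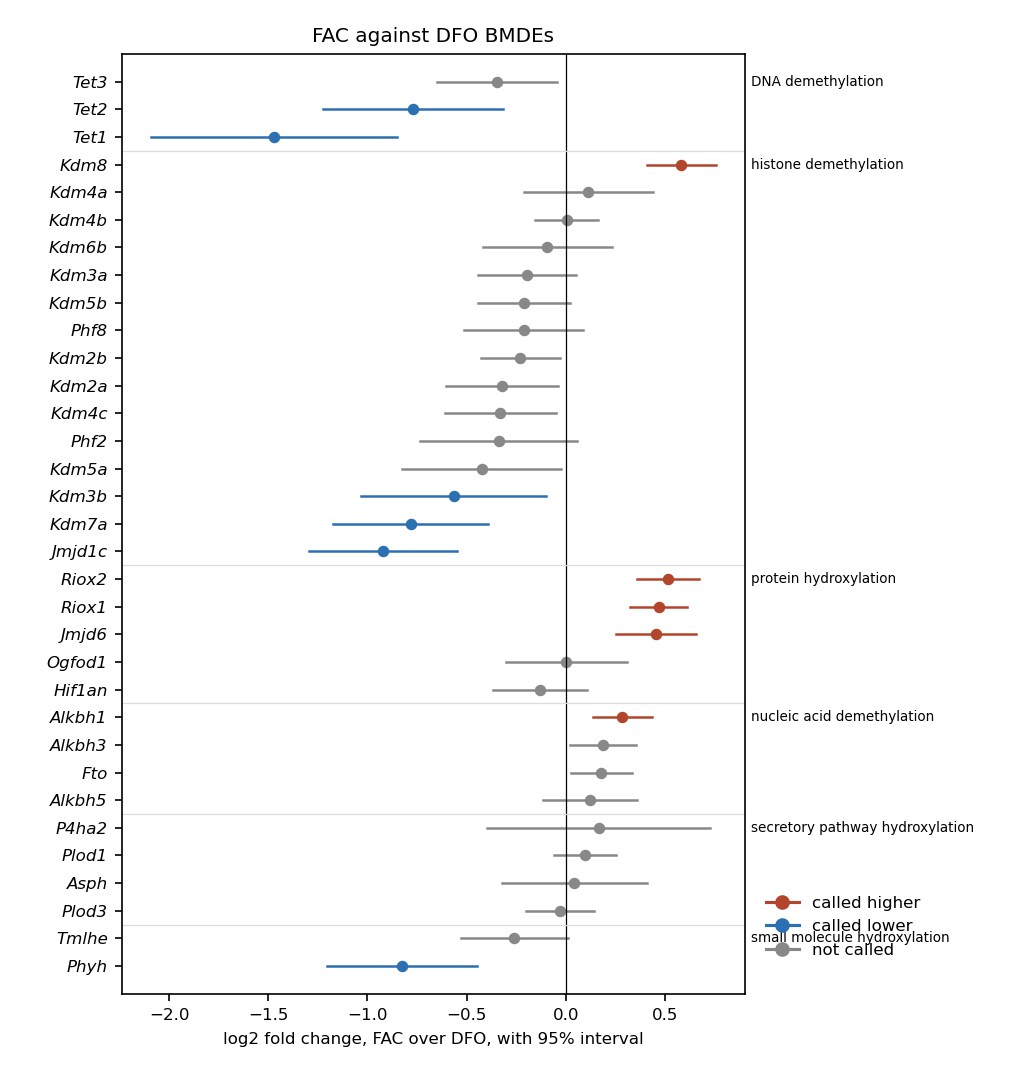
Log2 fold change of FAC over DFO with its 95% interval for the 33 members, grouped by role and coloured by call. The 3 TET enzymes lie below 0, and the called protein hydroxylases and Alkbh1 lie above 0.

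Set against controls in the shared fit of the 3 arms, few members were called. With DFO, Kdm8 (-0.44, SE 0.09, adjusted p 0.0168) and Riox1 (-0.33, SE 0.08, adjusted p 0.0238) were lower than in controls and none was higher, 6.06% of members against 11.6% of all genes (6.46% higher, 5.12% lower). With FAC, Phyh was lower than in controls (-0.78, SE 0.19, adjusted p 0.0415) and none was higher, 3.03% of members against 6.04% of all genes (1.76% higher, 4.28% lower). Both DFO calls held in every alternative that kept all libraries. With 1 library fewer, Kdm8 lost its call without either control or without DFO library 11 or 12 (-0.47 to -0.40), and Riox1 without any 1 control or DFO library (-0.35 to -0.30). Phyh lost its call without any 1 library other than FAC 6 and FAC 7, with fold changes of -0.99 to -0.54. At an unadjusted p under 0.05 there were 6 members for DFO (18.2%, beside 26.0% of all genes) and 4 for FAC (12.1%, beside 22.5%). Both comparisons use the same 2 control libraries. DFO and control libraries did not overlap for 12 members in each direction, where 32.8% of all genes were higher and 32.9% lower without overlap (65.7% in all). FAC and control libraries did not overlap for 4 members that were higher and 9 that were lower, beside 17.1% and 19% of all genes (36.1% in all). No called member changed by 2-fold or more in either comparison, which 1.55% of all genes did with DFO and 1.13% with FAC.

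The counts against controls changed without FAC library 6. Without it, DFO was higher than control for 7 members (Jmjd1c, Kdm2a, Kdm3b, Kdm4c, Kdm7a, Tet1 and Tet2) and lower for 5 (Fto, Jmjd6, Kdm8, Riox1 and Riox2), 36.4% of members beside 39.0% of all genes. FAC was then higher than control for Riox2 and lower for 5 members, 18.2% of members beside 21.7% of all genes. With the offsets and all libraries, DFO was higher for 2 members and lower for 6 (23.3% of all genes were called). FAC was then higher for 1 and lower for 2 (13.5%). Fitting only the DFO and control arms gave 10 members higher and 8 lower with DFO, 54.5% of members beside 48.0% of all genes. Fitting only FAC and control gave no called member, beside 0.935% of all genes. Tet1 gave 0.88 for DFO over control with all libraries (adjusted p 0.123) and the same rounded value, 0.88, without FAC library 6 (adjusted p 0.000493).

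Ordered by their means over the arms, 8 members had DFO under control under FAC, which is 24.2% of members and 32.5% of all genes tested. They were Alkbh1, Alkbh3, Alkbh5, Jmjd6, Kdm8, Plod1, Riox1 and Riox2. The reverse order held for 15 members, 45.5% of members and 35.2% of all genes, and included all 3 TET enzymes and 11 histone demethylases. The remaining 10 had neither order (30.3% of members, 32.3% of all genes). The order was taken from mean CPM with all libraries and without offsets. The length trend was 0.238 to 0.292 in DFO libraries, 0.0964 and 0.116 in controls and -0.873 to 0.119 in FAC libraries. With length and GC offsets, FAC over DFO was positive for 10 of the 15 histone demethylases and 1 of the 3 TET enzymes. The part of transcript length in the order was not tested.

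The FAC and DFO counts also moved with processing. Without FAC library 6, 10 members were higher and 12 lower with FAC than with DFO, where 31.9% of all genes were higher and 30.7% lower. With length and GC offsets 18 members were higher and 5 lower, beside 34.1% and 21.9% of all genes, and with both changes 19 were higher and 6 lower, beside 40.6% and 25%. Over all genes the offsets moved the share of called genes that were higher with FAC than with DFO to 61.0%, against 48.7% without them. For FAC against control that share was 55.9% with them and 29.2% without, and for DFO against control 45.2% with them and 55.8% without. Of the 11 members called, 10 kept their call under every alternative run, and Kdm3b did not.

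**Figure D3:**
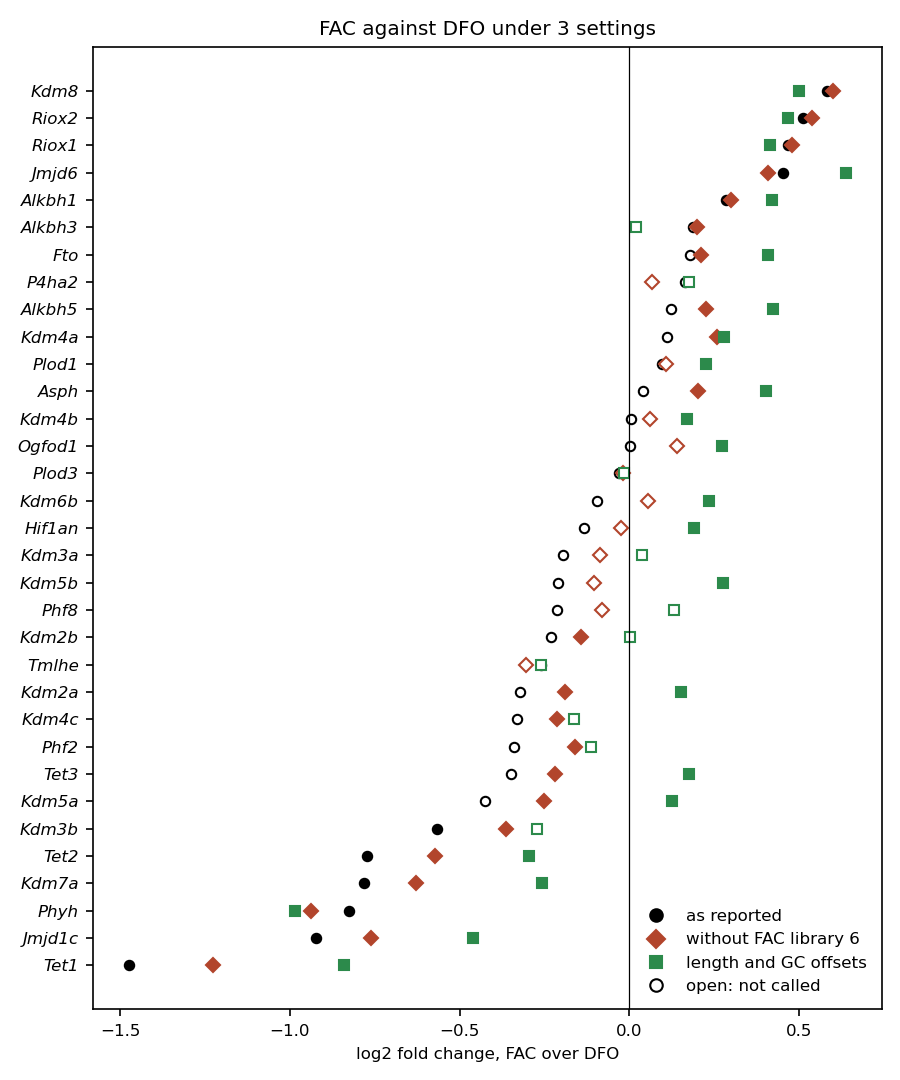
Log2 fold change of FAC over DFO for the 33 members as reported (circles), without FAC library 6 (diamonds) and with length and GC offsets (squares). Filled symbols are called and open ones are not. Tet3, Kdm2a, Kdm5a, Kdm5b, Kdm6b and Hif1an lay below 0 as reported and above 0 with offsets, while Tet1, Jmjd1c, Phyh, Kdm7a and Tet2 stayed below 0.

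Of 10 genes that report on iron, 4 were higher with FAC than with DFO (Ftl1, Alas1, Hmox1 and Slc11a2) and 3 were lower (Tfrc, Slc40a1 and Fbxl5), and with DFO 1 was higher and 1 lower than in controls. Tfrc, the transferrin receptor, averaged 320 ± 13.2 CPM with FAC, 481 ± 4.36 CPM with DFO and 485 ± 11.6 CPM in controls, so it was lower with FAC and did not separate DFO from control. Slc40a1, the iron exporter, was at 85.8 ± 1.92, 152 ± 3.48 and 101 ± 1.95 CPM in FAC, DFO and control libraries. Of 16 tested HIF target genes, 11 were higher and 2 lower with FAC than with DFO, and with DFO 6 were lower than in controls and none higher. Cell cycle genes were higher with FAC than with DFO for 11 of 12. The part of these changes in the results on the members was not tested.

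Other gene lists were set beside the members, where 23.5% of all genes were higher and 24.7% lower with FAC than with DFO. Of 25 other iron and 2-oxoglutarate dioxygenases tested, 7 were higher and 5 lower with FAC than with DFO, with a median log2 fold change of 0.13. They included Plod2, a lysyl hydroxylase (-1.83), P3h2, a prolyl hydroxylase (-1.30), Egln3, a HIF prolyl hydroxylase (0.80), and P4ha1, a collagen prolyl hydroxylase (0.61). Of 26 chromatin and RNA methylation enzymes that need no iron, 5 were higher and 7 lower, with a median of -0.15, and the H3K4 methyltransferases Kmt2a (-0.91), Kmt2c (-0.88) and Kmt2d (-0.75) led those lower. Of 14 genes of 2-oxoglutarate supply and removal, 6 were higher and 2 lower, among them Idh2 (0.57), Got1 (0.40) and Idh3a (0.36), all higher. Egln3 and P4ha1 are also in the list of HIF targets. The methylation enzymes summed to 1943 to 3073 CPM over FAC libraries, 3095 to 3158 CPM with DFO and 2977 to 2990 CPM in controls. Values of these lists were taken with all libraries and without offsets, and the part of transcript length in them was not tested.

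Between bone marrow eosinophils and GMPs, 2 members were higher in eosinophils, 2 were lower and 28 were not called, out of 32 tested, which left out P4ha2 for low counts. That is 12.5% of members, against 19.8% of all 12214 genes tested (13% higher, 6.78% lower). The 2 members called with 2-fold or larger changes stand beside 14.6% of all genes, and 3 higher and 9 lower members without overlap beside 23.7% and 24.7% (48.3% in all). Eosinophil library 3 stood apart, with a length trend of -1.21 against -0.101 and -0.423 in eosinophil libraries 1 and 2, and 0.354 to 0.813 in GMPs. All 10 eosinophil markers were higher in the eosinophil libraries, but so were all 10 neutrophil markers (32724 to 197222 CPM summed, against 76.9 to 108 CPM in GMPs), all 10 erythroid markers and 7 of 7 B cell markers. Progenitor markers summed to 39712 to 62895 CPM in eosinophil libraries and 51436 to 61720 CPM in GMPs. The libraries labelled bone marrow eosinophils thus held markers of several other cell types. The part of these other cells in the values below was not tested.

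Kdm6b was higher in eosinophil libraries, at 80.3, 52.8 and 44.3 CPM, against 16.9, 22.4 and 17.3 CPM in GMP libraries. The groups did not overlap, and the log2 fold change was 1.65 (SE 0.28, adjusted p 0.00934). Phyh was at 90.1, 64.1 and 86.7 CPM in eosinophil libraries and 38.4, 43.5 and 45.0 CPM in GMPs. The groups were apart, at 0.92 on the log2 scale (SE 0.19, adjusted p 0.0189). Its authors' TPM did not separate the groups, at 65.9 ± 34.1 in eosinophil libraries and 69.1 ± 8.30 in GMPs. Over the 33 members the median TPM was lower in eosinophil libraries, at 9.03 against 18.1 in GMPs. With length and GC offsets the fold change of Phyh was 0.19 and not called.

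Alkbh1 was lower in eosinophil libraries, at 19.5, 16.6 and 16.3 CPM, against 44.4, 52.3 and 34.0 CPM in GMPs. The groups did not overlap and the log2 fold change was -1.32 (SE 0.23, adjusted p 0.0109). Plod3 was at 165, 146 and 141 CPM in eosinophil libraries and 287, 256 and 235 CPM in GMPs, also without overlap, at -0.78 (SE 0.16, adjusted p 0.0165). None of the 4 calls held under every alternative. Kdm6b lost its call without GMP library 1 (1.57) or 3 (1.58), Alkbh1 without GMP library 1 (-1.31) or 2 (-1.17), Phyh without any 1 GMP library (0.85 to 0.96), and Plod3 without any 1 GMP library or eosinophil library 2 (-0.85 to -0.71). With all libraries kept, Plod3 also lost its call with offsets (-0.54, adjusted p 0.244), Phyh and Plod3 with a replicate block, and Phyh, Plod3 and Alkbh1 with block and offsets. Without eosinophil library 3, 7 members were higher (Asph, Kdm4a, Kdm6b, Kdm7a, Phyh, Plod1 and Riox1) and 5 lower (Alkbh1, Kdm2b, Ogfod1, Plod3 and Tet2), 37.5% of members beside 36.6% of all genes.

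Tet2 was at 9.41, 15.7 and 2.41 CPM in eosinophil libraries and 31.4, 46.4 and 30.4 CPM in GMPs. The groups were apart, but the spread left it uncalled (-1.97, 95% interval -3.44 to -0.50, adjusted p 0.0672), and without library 3 it was called at -1.53 (adjusted p 0.00495). Kdm2b, an H3K36 demethylase of a Polycomb complex, likewise had 79.0, 59.9 and 25.5 CPM in eosinophil libraries and 147, 136 and 124 CPM in GMPs, at -1.30 (adjusted p 0.0568) with all libraries and -0.97 (adjusted p 0.00350) without library 3. With all libraries, both were called lower with DESeq2 and with a replicate block, with or without offsets. Kdm2b was also called with offsets alone (-1.09, adjusted p 0.00832) and without eosinophil library 1, while Tet2 was called in neither. Neither was called with other scaling factors, with no low-count filter, or without eosinophil library 2 or any 1 GMP library. The intervals of the 28 uncalled members ran from -5.17 (Tmlhe) to 2.38 (Kdm7a).

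**Figure D4:**
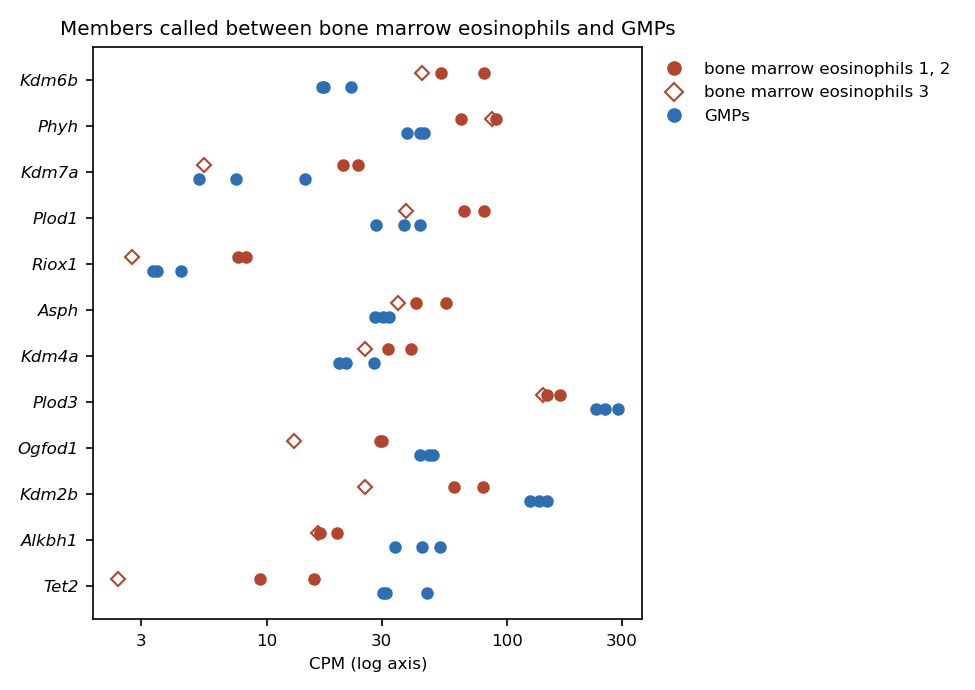
CPM on a log axis of the 12 members called between bone marrow eosinophils and GMPs with all libraries or without eosinophil library 3. Library 3, the open diamond, is the lowest eosinophil library for every member shown but Phyh, and for Riox1 it lies below all GMPs.

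Between T2 and resting eosinophils, 14 members were higher with T2, 8 were lower and 9 were not called, out of 31 tested. The share of 71.0% stands beside 76.1% of all 11345 genes tested (38.2% higher, 37.9% lower), and 5 members changed by 2-fold or more, where 27.5% of all genes did. Groups did not overlap for 13 members that were higher and 8 that were lower, beside 38.8% and 39.0% of all genes (77.7% in all). Kdm7a and Tet2 were higher and Tet1, Kdm4a, Kdm3b and Fto lower. Upper-quartile scaling moved the median of all genes to -0.13, against -0.01 with TMM. It gave 9 members higher and 10 lower, beside 32.5% and 43.4% of all genes. Length and GC offsets gave 19 members higher and 6 lower, beside 40.0% and 36.9% of all genes. The median of the members was 0.20 with offsets and 0.09 without, where that of all genes was 0.02 and -0.01. Iron genes differed in the same libraries, with Tfrc at 56.3 ± 5.95 CPM with T2 and 12.3 ± 0.373 CPM at rest, and 14 of 17 HIF targets were higher with T2. Neutrophil markers summed to 944 to 980.4 CPM with T2 and 1965 to 2200.4 CPM at rest, with 2 of 10 higher and 5 lower with T2. Eosinophil markers summed to 6082 to 6210 CPM with T2 and 7495 to 7854 CPM at rest, with 2 of 10 higher and 7 lower. The part of cell mixture in the T2 results was not tested.

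Kdm7a was at 1041, 1037 and 861 CPM with T2 and 236, 229.8 and 248 CPM at rest, with no overlap, at 2.04 on the log2 scale (SE 0.06, adjusted p 8.17e-14). Per length it was the highest member with T2, at 94.8 ± 8.76 FPKM (the authors' length-scaled unit there). Tet2 was at 120.1, 133 and 105 CPM with T2 and 53.5, 51.3 and 55.3 CPM at rest, at 1.16 (SE 0.07, adjusted p 5.50e-10). Tet1 was lower. It was at 0.736, 0.182 and 0.0559 CPM with T2, which is 12 counts at most in a library, and 1.74, 2.35 and 1.85 CPM at rest (-2.62, SE 0.50, adjusted p 0.000194). Its T2 libraries 2 and 3 held 3 counts and 1 count, and the fold change ran from -3.99 to -2.09 over the alternatives. Tet3 did not differ beyond its spread at 0.11 (95% interval -0.001 to 0.21, adjusted p 0.0678).

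Kdm4a was the highest member per length at rest, at 72.2 ± 1.71 FPKM. It was at 154, 153 and 146 CPM with T2 and 312, 295 and 305 CPM at rest, at -1.01 (SE 0.04, adjusted p 6.24e-12). Kdm3b was at 199.7, 206 and 187 CPM with T2 and 347, 343 and 344 CPM at rest, at -0.80 (SE 0.05, adjusted p 1.32e-10). Kdm2a, an H3K36 demethylase that binds CpG islands, was at 438, 467 and 425 CPM with T2 and 231, 242 and 253 CPM at rest, at 0.87 (SE 0.05, adjusted p 1.12e-10). Groups did not overlap for these 3.

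Jmjd6 was at 49.3, 52.0 and 54.8 CPM with T2 and 27.4, 23.7 and 28.05 CPM at rest, at 0.98 (SE 0.07, adjusted p 3.33e-09). Plod3 was at 51.4, 56.3 and 65.0 CPM with T2 and 29.4, 30.4 and 26.3 CPM at rest, at 1.00 (SE 0.08, adjusted p 1.82e-08). Of the 4 nucleic acid demethylases, 3 were higher with T2 (Alkbh1, Alkbh3 and Alkbh5) and Fto was lower, beside 38.2% and 37.9% of all genes. Alkbh1 was at 15.7, 21.5 and 19.9 CPM with T2 and 11.1, 12.1 and 11.9 CPM at rest (0.70, SE 0.11, adjusted p 2.62e-05), and Fto was at 19.9, 15.1 and 18.7 CPM with T2 and 31.5, 32.7 and 32.5 CPM at rest (-0.85, SE 0.09, adjusted p 2.6e-07). Of the 22 calls, 15 held under every alternative run, these 10 among them, and Alkbh5, Jmjd1c, Kdm2b, Kdm3a, Kdm4b, Ogfod1 and Phf8 did not.

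**Figure D5:**
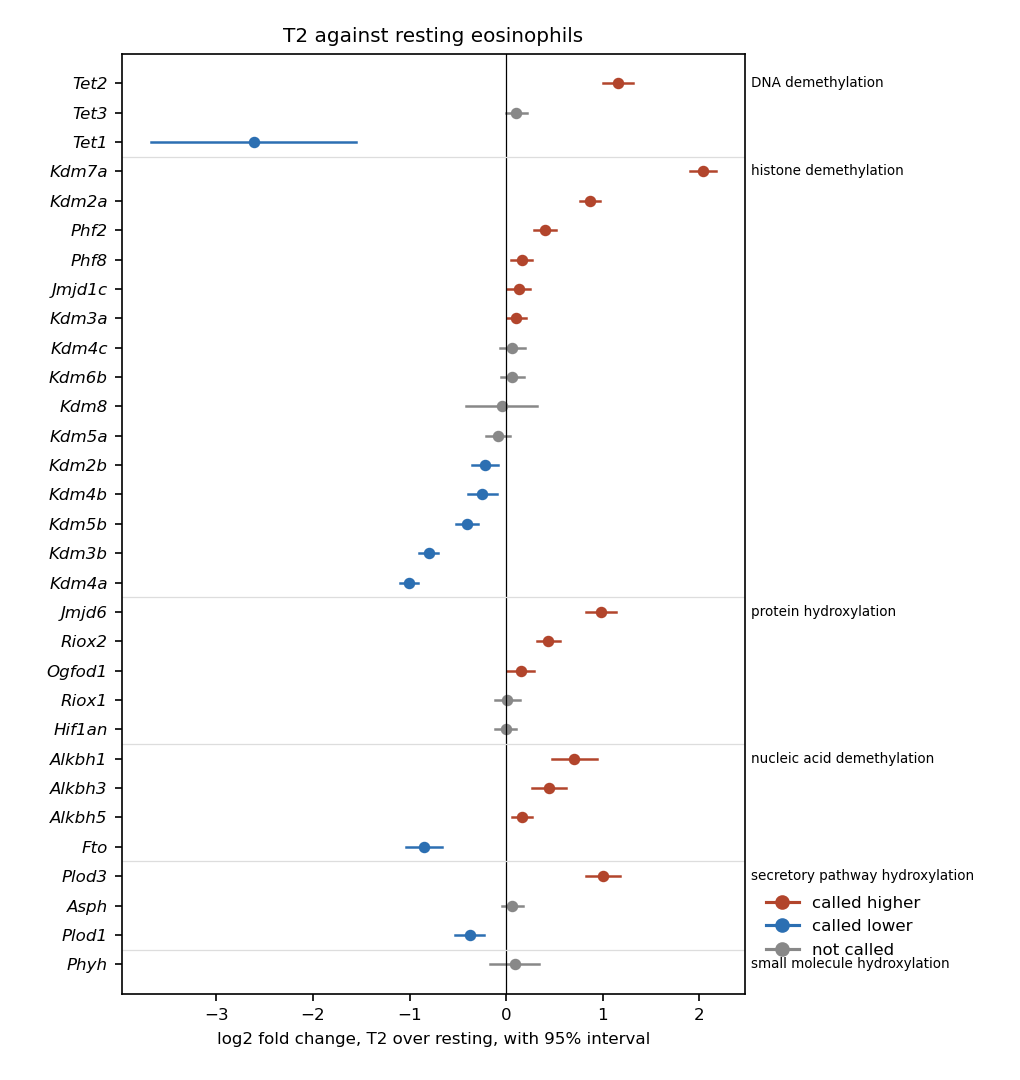
Log2 fold change of T2 over resting eosinophils with its 95% interval for the 31 members tested, grouped by role and coloured by call. Kdm7a at 2.04 is the highest and Tet1 at -2.62 the lowest, with the widest interval.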

How the data were processed

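Poly(A) RNA of 21 libraries was sequenced. Per the labels, oligo(dT) beads selected mRNA for NEBNext Ultra libraries; the strand setting of the counting is not given. The submitters' processing notes name RSEM, HISAT2, StringTie 1.3.1, fastp 0.18.0, the build mm10 and Bowtie2 2.2.8, without saying which tool made which column. The authors deposited expected counts with TPM for the bone marrow and BMDE tables, and read counts with FPKM for the T2 table. Its log2 and p-value columns, which the authors deposited, were not used.

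Expected counts were rounded. Members were matched by symbol and identifier. Kdm3b and Alkbh3 were matched by identifier in the T2 table. Each table had its own fit (R 4.3.3, edgeR 4.0.16, limma 3.58.1) with filterByExpr, TMM factors and the two-sided quasi-likelihood test; the 3 BMDE arms shared 1 fit. Benjamini-Hochberg adjustment ran over all tested genes, and a call means an adjusted p under 0.05. CPM are means with SD, and intervals are 95%. The fit was tested on simulated data with the same dispersion for every gene, no length trend and no library apart. That test therefore does not cover the libraries that stood apart here.

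Values per library are given for every member called in a BMDE comparison and for the 10 largest called, non-overlapping changes in the other 2. Tet2 and Kdm2b in bone marrow eosinophils were added after their values were seen. Coordinates are from GENCODE M21 (GRCm38) and promoters from RefSeq (GRCm38.p6). Alternatives were DESeq2 1.42.0, median-ratio and upper-quartile factors, no low-count filter, length and GC offsets, 2 arms only, a replicate block and leaving out each library. Members and lists were chosen with earlier results of these data known. The reads carry no molecular identifiers.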

Additional observations from a re-analysis of the deposited data

Results flagged for a closer look

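Of 33 members examined among the 4 FAC libraries, 2 had 1 library far from the other 3, and chance flags about 1 in 20. Kdm5b was at 42.49 CPM in FAC library 6, against 55.4, 57.8 and 56.2 CPM in FAC libraries 5, 7 and 8. Phf2, an H3K9 demethylase, was at 49.5 CPM in library 6, against 87.7, 90.0 and 83.3 CPM in the others. That library also had the length trend of -0.873 given above; its part in these values was not tested.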

How the results depend on the processing

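Of the 11 members called between FAC and DFO, 10 kept their call under every alternative, as did 15 of 22 between T2 and resting eosinophils and none of the 7 calls in the other comparisons. Between FAC and DFO, offsets gave 18 members higher, offsets without FAC library 6 gave 19, and upper-quartile factors gave 10 lower. Beside these stand 34.1% and 40.6% of all genes higher, and 24.6% lower. Leaving out 1 library gave 5 to 10 higher and 5 to 12 lower, and 4250.0 to 7855 genes called, beside 6079. For DFO against control, 2 arms only gave 10 higher and 8 lower, offsets 2 and 6, and offsets without FAC library 6 gave 4 and 12; 1 library left out gave 0 to 7 and 0 to 5. Called shares with 2 arms only were 54.5% of members and 48.0% of all genes. They were 24.2% and 23.3% with offsets, and 48.5% and 43.9% with offsets without FAC library 6. Genes called for DFO against control were 1460.0, and 5982, 2933 and 5514 in those settings and 217 to 4899 with 1 library left out. For FAC against control DESeq2 gave 1 higher, offsets 1 higher and 2 lower, offsets without FAC library 6 gave 8 and 2, 2 arms only and upper-quartile factors 0 lower, and 1 library left out 0 to 1 higher and 0 to 5 lower. Genes called there were 761, and 116 with 2 arms only, 1316 with DESeq2, 1698 with offsets, 3769 with offsets without FAC library 6 and 76 to 2728 with 1 library left out.

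Between bone marrow eosinophils and GMPs, DESeq2 gave 6 members lower, beside 12.7% of all genes. Offsets without eosinophil library 3 gave 6 higher and 8 lower, beside 16.6% and 27.7% of all genes. With 1 library left out there were 0 to 7 higher and 0 to 5 lower, beside 4.92% to 20.1% and 0.989% to 16.4% of all genes. Genes called were 2413, and 3867 with DESeq2, 5610.0 with those offsets and 747 to 4623 with 1 library left out. For T2, upper-quartile factors gave 9 members higher, beside 32.5% of all genes. Offsets gave 19 higher and 6 lower, beside 40.0% and 36.9% of all genes. Block and offsets together gave the same 19 and 6, beside 39.6% and 36.6%. Leaving out 1 library gave 11 to 15 higher, 8 lower and 8300.0 to 8520.0 genes called. Samples with the same number did not deviate together: correlations were 0.0124, 0.00498 and 0.119 for eosinophils and GMPs and -0.00918, -0.0216 and 0.0335 for T2 and resting cells. The replicate block gave 1 member higher and 1419 genes called for eosinophils and GMPs, and 1 member higher and 1564 genes with block and offsets. No paired analysis was possible because no replicate numbers are shared between the BMDE arms.

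These signs turned where the value was called in either setting; turns between uncalled values are not listed. FAC over DFO with offsets, and with offsets without FAC library 6, was 0.17 and 0.14 for Tet3, 0.15 and 0.14 for Kdm2a, 0.13 and 0.15 for Kdm5a, 0.28 and 0.23 for Kdm5b, 0.23 and 0.29 for Kdm6b, and 0.19 and 0.19 for Hif1an; for Phf8 the second was 0.16. FAC over control with offsets without FAC library 6 was 0.15 for Kdm2a, 0.18 for Kdm4a, 0.17 for Kdm5b, 0.21 for Kdm6b, 0.15 for Phf8 and 0.21 for Asph. Riox2 in eosinophils over GMPs was -0.53 with offsets without library 3. T2 over resting was -0.0103 for Kdm3a with upper-quartile factors, 0.0608 for Kdm4b with offsets and 0.0598 with block and offsets, and 0.18 for Hif1an in both. The cause was not tested. Both the offsets without a library and that library were chosen after seeing the data.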

Other observations

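Hif1an was at 53.96 and 47.6 CPM in bone marrow eosinophil libraries 1 and 2 and at 0.168 CPM in library 3, against 51.0, 61.3 and 43.6 CPM in GMPs. In library 3 that is the level of 3 counts (0.168 CPM), while Riox2 was at 92.0 CPM and Jmjd1c at 85.2 CPM there, each the highest of the 3 eosinophil libraries.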
